A study of Mus musculus with 4 samples.

Results

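Astrocytes of the mouse hippocampus were analysed as 719 of the 6464 cell barcodes in a single-cell RNA sequencing data set. They were selected on their own counts of unique molecular identifiers (UMIs), each of which stands for 1 captured RNA molecule. A barcode needed at least 200 genes, which 6281 barcodes had, and at least 4 UMIs summed over Gja1, Ntsr2, Cldn10, Slc4a4 and Fgfr3. It could hold at most 2 UMIs over the microglial genes P2ry12 and Cx3cr1, the oligodendrocyte genes Mog and Opalin, the precursor gene Pdgfra and the endothelial gene Cldn5, at most 2 over the ependymal genes Tmem212 and Ccdc153, and fewer than 50 of the choroid plexus gene Ttr. These exclusion genes were set so that genotypes could be compared in astrocytes with little RNA from microglia or oligodendrocytes, and they removed 79 barcodes that passed the positive side of the rule.

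The libraries came from the hippocampi of male mice aged 3 months on a C57BL/6J background, with 1 library per mouse. There were 2 Dp(10)2Yey mice and 2 wild-type (WT) littermates. Dp(10)2Yey mice, kept as hemizygous mutants, carry a duplication within mouse chromosome 10 of a segment homologous to part of human chromosome 21. Cells were prepared on 2 consecutive days, with 1 Dp(10)2Yey and 1 WT mouse per day. Whether mice with the same replicate number were handled on the same day is not given.

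Astrocytes take up the glutamate and GABA that neurons release, buffer potassium, and move water and bicarbonate between neurons and vessels. They supply lactate and lipids to neurons and are joined into networks by gap junctions. One of their widely used markers, S100b, encodes a calcium-binding protein and lies inside the duplicated segment, so that in these mice it is both a marker of the cell type and a gene of altered copy number.

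The number of astrocytes was 94 of 1022 barcodes in WT replicate 1 and 171 of 1686 in WT replicate 2. Among Dp(10)2Yey barcodes it was 166 of 1355 for replicate 1 and 288 of 2218 for replicate 2. As a share of the barcodes with at least 200 genes, this was 9.20% (95% exact binomial interval 7.496 to 11.1) and 10.1% (8.74 to 11.7) in the WT libraries, and 12.3% (10.6 to 14.1) and 13.0% (11.6 to 14.5) in the Dp(10)2Yey libraries. Both Dp(10)2Yey libraries held a higher share than both WT libraries, and the intervals of neighbouring libraries overlapped. The mean share was 9.67 ± 0.668% in WT and 12.6 ± 0.519% in Dp(10)2Yey mice (SD, n = 2 each), a difference of 2.95 percentage points with a two-sided exact permutation p of 0.333, the smallest that 2 against 2 libraries can give. The difference was 1.57 points when barcodes under 1000 UMIs were left out, the others were thinned to 1000 UMIs and the rule was applied to the thinned counts. The shares were then 7.96%, 7.72%, 8.44% and 10.4%, in the order above, of 729, 1463, 1138 and 1973 barcodes. The part of depth and that of the barcodes left out cannot be told apart in this value.

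The astrocytes of WT replicates 1 and 2 held 215635 and 583865 UMIs, and those of Dp(10)2Yey replicates 1 and 2 held 520226 and 891888. The median astrocyte had 1612, 2422, 2212 and 2484 UMIs, in the same order, so that WT replicate 1 was the shallowest and smallest library. A second library stood apart in its mitochondrial RNA: the median astrocyte of Dp(10)2Yey replicate 2 had 7.81% mitochondrial UMIs, against 13.8% and 12.5% in the WT libraries and 13.7% in the other Dp(10)2Yey library. In every library the astrocytes had a higher median than the other barcodes, which lay at 5.06%, 5.19%, 5.16% and 3.02%. A count of 8 barcode sequences occurred in more than 1 library, and 0 of them belonged to an astrocyte in both libraries. Scrublet called 54 doublets among the 6281 barcodes with at least 200 genes (0.860%), and 2 of them were astrocytes.

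The genes of the rule are given as a description, since they chose the cells. Levels are UMIs summed over the astrocytes of a library and scaled to the depth of the library as counts per 10 to the power 6 (CPM). Gja1, which encodes the main astrocytic gap junction protein connexin 43, stood at 1962 and 1866 CPM in WT replicates 1 and 2 and at 1928 and 2309 CPM in Dp(10)2Yey replicates 1 and 2. Slc4a4, the sodium bicarbonate cotransporter, stood at 2043, 1560, 1777 and 1838 CPM in that order. Ntsr2, a neurotensin receptor, stood at 1418, 1167, 1205 and 1306 CPM. The genotypes overlapped for each of these 3 genes. Cldn10, a claudin of tight junctions, had 993, 959, 1093 and 1119 CPM, and Fgfr3, a receptor for fibroblast growth factors, had 678, 467, 557 and 590 CPM. The genotypes overlapped for Fgfr3 and not for Cldn10, which overlapped when 20 astrocytes with few other astrocyte markers were left out.

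**Figure D1:**
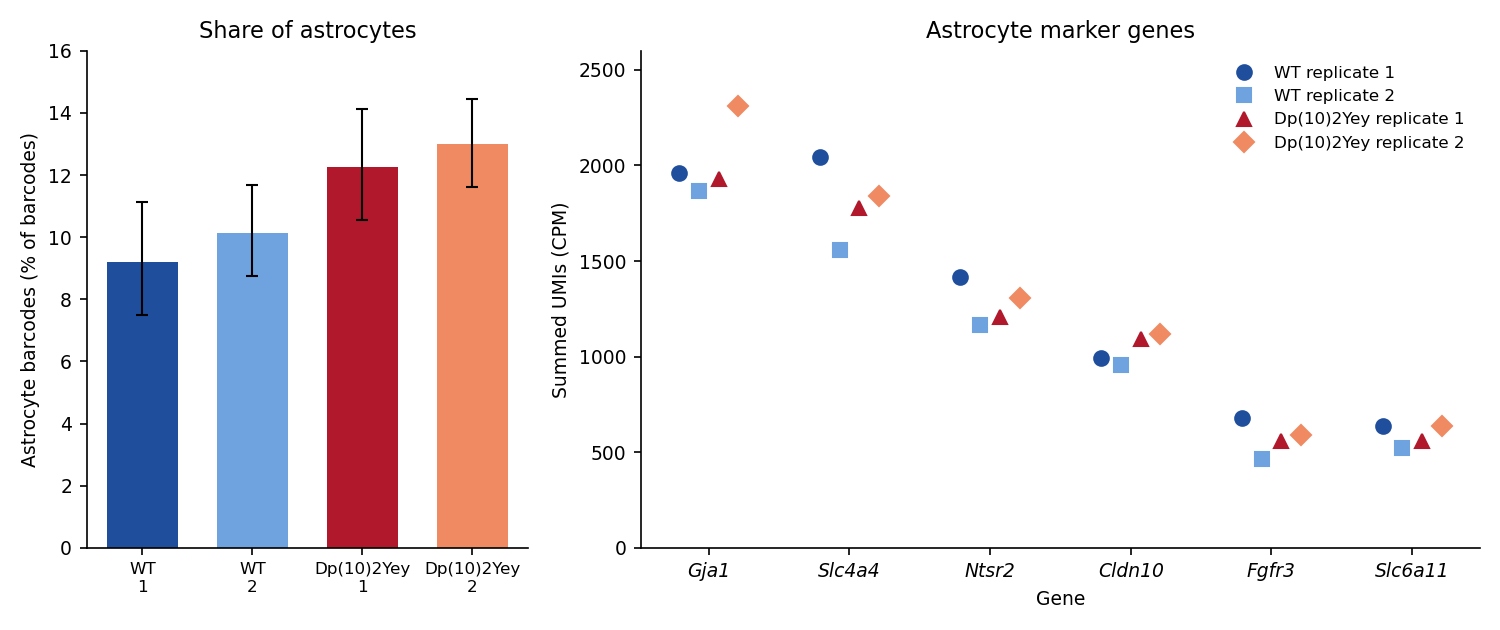
Left, astrocytes as a percentage of the barcodes with at least 200 genes in each library, with 95% exact binomial intervals (counting error only). Right, summed UMIs in CPM of the 5 rule genes and Slc6a11 in each library. The rule genes chose the cells and are shown as a description. The shares of the Dp(10)2Yey libraries are 12.3% and 13.0%, above the 9.20% and 10.1% of WT.

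The label was checked on markers that the rule did not use. Slc6a11, the GABA transporter GAT-3, stood at 635 and 521 CPM in the WT libraries and at 557 and 636 CPM in the Dp(10)2Yey libraries. Its average level over the libraries was 56.7 times that of all other barcodes, and the genotypes overlapped. Slc1a2, the main glutamate transporter, stood at 10887, 10063, 12620 and 10782 CPM in the order WT replicates 1 and 2, Dp(10)2Yey replicates 1 and 2. After thinning to 1000 UMIs, 95.6%, 96.6%, 98.5% and 97.1% of the astrocytes held a Slc1a2 UMI, against 3.25%, 4.04%, 4.68% and 5.43% of the microglia, which should lack it. Aqp4, the water channel of astrocytic endfeet, was found in 55.9%, 50%, 44.7% and 49.2% of the thinned astrocytes and in at most 0.121% of the thinned microglia. Before thinning the median microglial barcode had 3371, 3970, 3992 and 3948 UMIs, more than the median astrocyte.

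A list of 25 further astrocyte genes, Slc1a2, Aqp4, Aldoc and S100b among them, was examined as a whole. All 25 passed the filter on low counts, and their summed level was 41692, 37883, 43388 and 42522 CPM in the order above, with WT replicate 2 lowest. The 24 genes of this list other than S100b made up 4.29%, 4.23%, 4.06% and 4.73% of the UMIs of the median astrocyte, against 0.0521%, 0.0581%, 0.0811% and 0.0517% in the median of the other barcodes. By these markers the selected barcodes were astrocytes, with the exceptions described next.

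At the threshold of the rule, 62 astrocytes had exactly 4 UMIs of the rule genes. Their median depth was 1049.5 UMIs and the 24 other markers made up 2.90% of their UMIs in the median. Just outside, 92 barcodes had 3 UMIs of the rule genes and met the exclusions, with a median depth of 951 UMIs and a marker share of 2.79%. By library the members lay higher in WT replicate 1 (3.77% against 2.60%), WT replicate 2 (2.88% against 1.96%) and Dp(10)2Yey replicate 2 (4.50% against 2.88%), and lower in Dp(10)2Yey replicate 1 (2.43% against 3.18%), which held 29 of the 62. A marker share under 1% was found in 9 of the 62 members and in 21 of the 92 barcodes outside. The 657 astrocytes with 5 or more UMIs had a share of 4.49%, and the 4655 barcodes with 0 UMIs of the rule genes had 0.0417%.

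A group of 20 astrocyte barcodes carried the rule genes with few other astrocyte markers: the 24 markers made up under 1% of their UMIs. This limit was chosen after seeing the data, and these are called low-marker barcodes here. WT replicate 1 held 2 of them, WT replicate 2 held 7, Dp(10)2Yey replicate 1 held 5 and Dp(10)2Yey replicate 2 held 6. Their depth ranged from 1190 to 50429 UMIs and 8 of the 14 astrocytes above 10000 UMIs were among them. Their share of the summed RNA was larger than their share of the barcodes: 8.08%, 18.2%, 6.98% and 9.58% of the astrocyte UMIs of the libraries in the same order. WT replicate 2 had the largest such share. In 16 of the 20 both Ntsr2 and Fgfr3 were at 0 UMIs, and the rule was met through Slc4a4, Gja1 or Cldn10.

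The low-marker barcodes were compared on the marker lists of neurons, oligodendrocytes, oligodendrocyte precursor cells (OPC) and microglia. A list of 10 fibroblast genes (Dcn, Lum, Col1a1 and Mgp among them), drawn up once the first results were known, was added. The neuronal list had the largest share of their UMIs in 8 barcodes and the fibroblast list in 7. The oligodendrocyte list had it in 4 and the OPC list in 1. Lists of other cell types, such as dividing cells, were not scored here, and the largest share could be small. In a barcode of Dp(10)2Yey replicate 2 with 41381 UMIs it was 0.329%, for the oligodendrocyte list. The deepest low-marker barcode, of WT replicate 2, had 50429 UMIs, 8.64% of the astrocyte UMIs of that library. It held 88 UMIs of Slc4a4 and 24 of Gja1, 0 of Ntsr2, Cldn10 and Fgfr3, and the fibroblast list made up 2.48% of its UMIs. The gene with its highest count outside the mitochondrial genome was Mgp, which encodes matrix Gla protein. The exclusion genes of the rule were not set to remove neurons or fibroblasts, and these barcodes passed them. Because 1 library held the deepest of them, results are given below with all 719 astrocytes and, where it mattered, with the 699 that remain without the low-marker barcodes.

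**Figure D2:**
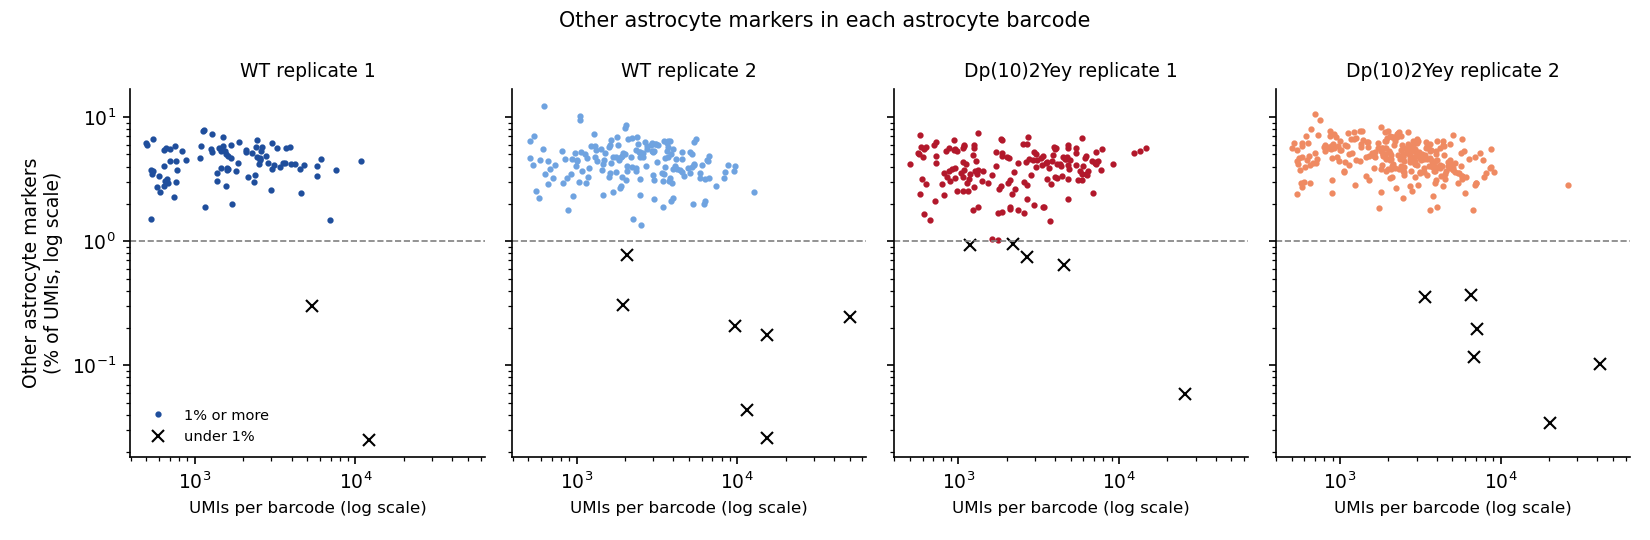
Each point is 1 astrocyte barcode, with its UMIs on the x axis and the share of its UMIs from 24 other astrocyte markers on the y axis (both on log scales), 1 panel per library. The dashed line marks 1%; crosses are the 20 barcodes under it, with 2, 7, 5 and 6 in the panels from left to right.

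Genes were ranked by how concentrated they were in astrocytes. By the ratio of the average CPM in astrocytes over that in all other barcodes, among genes with at least 100 CPM, Gjb6 ranked highest. Gjb6, which encodes connexin 30, stood at 477, 419, 405 and 407 CPM, a ratio of 97.8. Next came the scavenger receptor gene Scara3 (ratio 90.4), the glucocorticoid-activating enzyme gene Hsd11b1 (85.3), the angiotensinogen gene Agt (83.5) and the NMDA receptor subunit gene Grin2c (74.6). The D-serine and glycine transporter gene Slc7a10 (69.4), the cholesterol acyltransferase gene Lcat (68.4) and the ectonucleotidase gene Entpd2 (66.3) followed. The first 20 also held all 5 rule genes, whose place was fixed by the selection, and Egfr (55.0), AI464131 (51.8), F3 (45.2), Lgi4 (44.8) and Aldh1l1 (39.8). The exception among the 20 was Prg4 (43.2), which encodes a lubricating glycoprotein: it stood at 437 CPM in WT replicate 2, 12.6 CPM in Dp(10)2Yey replicate 2 and 0 in the other libraries, and at 0 in all 4 without the low-marker barcodes. Ratios of a cluster or gate against the rest are descriptions and were not tested.

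Between astrocytes of a library, variation was measured as the variance over the average of the counts after thinning to 1000 UMIs, a value that is 1 for counting noise alone. It was highest for the nuclear RNA Malat1 (51.0), then for Gm26870 (38.2) and Gm42418 (26.1), which are annotated as long non-coding RNAs. The secreted protease inhibitor gene Cst3 (14.95), the mitochondrial genes mt-Atp6 (9.25) and mt-Co3 (9.24) and the lipoprotein gene Apoe (8.87) came next, followed at lower values by mt-Co2, mt-Co1, mt-Cytb and the ferritin gene Fth1 (5.55). Slc1a2 (5.14), the metallothionein gene Mt1 (5.13), the myelin gene Mbp (5.02) and the clusterin gene Clu (4.63) completed the first 15. When the low-marker barcodes were left out, Mbp was replaced by mt-Nd2 among the 15, and the other 14 were the same genes.

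Gm26870 varied between libraries as well as between cells. It stood at 644 and 275 CPM in the WT libraries and at 443 and 1553 CPM in Dp(10)2Yey replicates 1 and 2, and the genotypes overlapped. After thinning, a UMI of it was found in 14.7%, 11.6%, 3.79% and 8.82% of the astrocytes and in at most 1.23% of the microglia of any library. A single barcode held 448 of the 1357 UMIs of Gm26870 in Dp(10)2Yey replicate 2.

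The genotype comparison asked which genes differ between Dp(10)2Yey and WT astrocytes when mice, and not cells, are the replicates. Of 7147 genes tested with edgeR on the summed UMIs, 0 (0%) passed an adjusted p of 0.01, the threshold of the study. The smallest adjusted p was 0.498. An unadjusted p under 0.05 was reached by 329 genes (4.6%), of which 129 were higher and 200 lower in Dp(10)2Yey astrocytes. DESeq2 also called 0 genes on the same sums, with 31 at an unadjusted p under 0.05. Of the 7147 genes, 3506 (49.1%) had a fold change above 0. The Dp(10)2Yey libraries both exceeded both WT libraries for 1154 genes (16.1%) and below both for 1180 (16.5%), which serves as the background for the counts of gene groups given next.

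Single libraries moved the count of called genes. With edgeR it was 106 or 0 when WT replicate 1 or 2 was left out, and 65 or 82 when Dp(10)2Yey replicate 1 or 2 was left out, where the lone library of a genotype is assumed to vary like the others. The genes of smallest p without WT replicate 1 were Fn1, Prg4, Ifi27l2a and Mgp, named after their values were seen. Mgp stood at 0 and 2896 CPM in the WT libraries and at 2.08 and 225 CPM in the Dp(10)2Yey libraries, and at 0, 0, 2.25 and 1.27 CPM without the low-marker barcodes. Without those barcodes 0 of 6331 genes passed (249 at an unadjusted p under 0.05), and leaving out each library in turn gave 3, 4, 18 and 0 genes. The 3 without WT replicate 1 were Gm26870, Hba-a1 and Nrgn, and the 4 without WT replicate 2 were Myoc, Mapk1ip1, Hba-a1 and Polr2l. Nrgn is a neuronal gene and Hba-a1 encodes a globin. The genes without Dp(10)2Yey replicate 1 included mt-Co3, mt-Atp6, mt-Nd3, mt-Co2, mt-Nd2, mt-Cytb and mt-Nd1 beside Lars2, Gm42418 and AY036118. The remaining Dp(10)2Yey library had 7.81% mitochondrial UMIs in its median astrocyte, the lowest of the libraries. Whether this share enters those calls was not tested.

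The duplicated segment runs from Prmt2 to Pdxk on chromosome 10 (76207222 to 78464975 in GRCm38, 2.26 Mb) and holds 62 protein-coding genes. Of these, 61 are in the files and 31 had at least 1 UMI in astrocytes, while 30 were at 0. The filter on low counts passed 20. The 62 are all genes annotated as protein-coding, with keratin-associated genes and unnamed gene models among them. The paper counts fewer, as orthologs of human chromosome 21 genes. On a hand-written list with 35 segment genes in the files, 5 were at 0. S100b was the most abundant: it stood at 453 and 510 CPM in WT replicates 1 and 2 and at 1083 and 682 CPM in Dp(10)2Yey replicates 1 and 2 (95, 280, 521 and 596 UMIs). The Dp(10)2Yey libraries both exceeded both WT libraries, with Dp(10)2Yey replicate 1 highest. The log2 fold change was 0.86 ± 0.25 (SE, n = 2 each, edgeR adjusted p = 0.723), and it was 1.17 and past the threshold when Dp(10)2Yey replicate 2 was left out and 0.52 when Dp(10)2Yey replicate 1 was left out. S100b was found in 29.4%, 30.8%, 55.3% and 45.8% of the thinned astrocytes, against 1.30%, 0.351%, 1.72% and 1.09% of the thinned microglia.

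Agpat3, which encodes an acyltransferase of phospholipid synthesis, stood at 224, 288, 409 and 436 CPM, with no overlap between the genotypes and a log2 fold change of 0.70 ± 0.22 (SE). Cstb, which encodes the protease inhibitor cystatin B, stood at 43.0, 93.0, 164 and 121 CPM, again without overlap (0.91 ± 0.32). Rrp1, which encodes a protein of ribosome assembly, stood at 105, 58.3, 143 and 126 CPM (0.83 ± 0.30). Leaving out WT replicate 2 moved Cstb to 1.72 and Rrp1 to 0.36. In these 3 genes the lowest Dp(10)2Yey library lay above the highest WT library. Pttg1ip stood at 162, 179, 218 and 285 CPM (0.56 ± 0.24), and Pfkl, which encodes the liver form of phosphofructokinase, at 28.6, 43.7, 64.4 and 64.1 CPM (0.72 ± 0.33). Prmt2, an arginine methyltransferase gene, had 23.9, 34.6, 49.9 and 64.1 CPM (0.89 ± 0.36). The value was 0.35 for Pttg1ip without Dp(10)2Yey replicate 2 and 1.17 for Pfkl without WT replicate 2. None of the 20 genes passed the adjusted p of 0.01.

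Over the 20 tested segment genes the median log2 fold change was 0.64, against -0.01 over all 7147 genes, and the fold changes ranged from -0.26 to 1.33. A ratio of 3 gene copies to 2 is 0.58 on this scale. The fold change was above 0 in 18 genes, an unadjusted p under 0.05 was reached by 10, and the Dp(10)2Yey libraries both exceeded both WT libraries in 13 and below both in 0. The filter passes a gene by its level in the libraries, so the 11 segment genes that had UMIs and were not tested are not covered by the median. Leaving out WT replicate 2 gave a median of 0.81, and leaving out Dp(10)2Yey replicate 2 gave 0.53. It was 0.39 over 31 genes, with 22 above 0, when no filter on low counts was used. It was 0.65 over 18 genes without the low-marker barcodes, with 15 above 0, and both Dp(10)2Yey libraries were then higher in 10 and lower in 1. The UMIs of all segment genes together stood at 1508, 1998, 2762 and 2416 CPM.

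**Figure D3:**
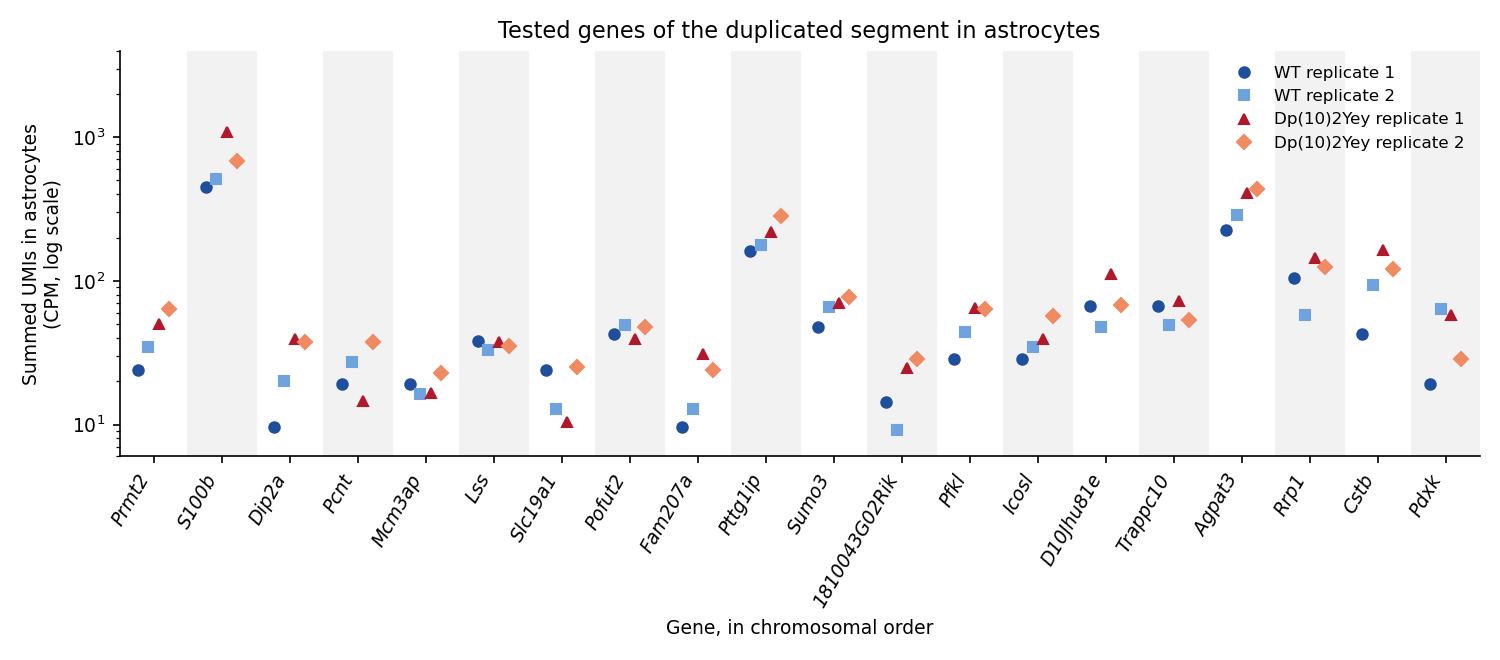
Summed UMIs in astrocytes, in CPM on a log scale, for the 20 tested genes of the duplicated segment in chromosomal order, with 1 symbol per library. Both Dp(10)2Yey libraries lie above both WT libraries in 13 genes, S100b, Agpat3 and Cstb among them, and the genotypes overlap in the other 7.

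The segment genes without such an order were Pcnt, Mcm3ap, Lss, Slc19a1, Pofut2, Trappc10 and Pdxk. Lss, which encodes lanosterol synthase of the cholesterol pathway, had 38.2, 32.8, 37.4 and 35.5 CPM and a log2 fold change of 0.07. Pdxk, which encodes pyridoxal kinase, had 19.1, 63.8, 58.2 and 28.6 CPM, and its fold change was -0.26 with all astrocytes and 0.65 without the low-marker barcodes. Among the genes that were not tested, the collagen genes Col6a1 and Col6a2 were found in WT replicate 2 (171 and 111 CPM) and Dp(10)2Yey replicate 2 (14.9 and 12.6 CPM) and were at 0 in the other libraries. Both were at 0 in all 4 libraries once the low-marker barcodes were left out. Adarb1, which encodes an RNA-editing enzyme, had 3, 7, 4 and 5 UMIs (14.3, 12.8, 8.31 and 5.72 CPM), too few to pass the filter. On these few UMIs its level was lower in both Dp(10)2Yey libraries, and the genotypes overlapped without the low-marker barcodes. The calcium channel gene Trpm2 had 0 UMIs in WT and 2 and 1 UMIs in the Dp(10)2Yey libraries.

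The same segment was compared in other cell classes of these libraries, gated on their own markers. Its median log2 fold change was 0.57 over 22 tested genes in oligodendrocytes, 0.56 over 20 in OPC and 0.57 over 26 in microglia. The difference between classes was tested for each gene as a class by genotype term with library as a block. For the segment genes 0 passed the adjusted p of 0.01 against any class. Unadjusted p values under 0.05 were found for 0 of 23 genes against oligodendrocytes, 1 of 24 against OPC and 3 of 29 against microglia, beside 390 of 9183, 440 of 8951 and 453 of 10454 over all genes. The gene against OPC was Pdxk, and those against microglia were Col6a1, Col6a2 and Adarb1. Without the low-marker barcodes both collagen genes had 0 UMIs in astrocytes. The log2 difference went from -1.07 to -0.19 for Pdxk and from -2.10 to -1.57 for Adarb1. For S100b the log2 difference between the fold change in astrocytes and that in the other class was 0.33, 0.23 and -0.31, and 0 of these passed the threshold.

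Outside the segment, the 10 genes of smallest p whose genotypes did not overlap were all lower in Dp(10)2Yey astrocytes. Lars2, which encodes the mitochondrial leucyl-tRNA synthetase, stood at 1441 and 1814 CPM in WT and at 821 and 724 CPM in Dp(10)2Yey libraries. Both Dp(10)2Yey values lay below both WT values, with a log2 fold change of -1.08 ± 0.22 (SE, n = 2 each, edgeR adjusted p = 0.498). It was -1.17, with an adjusted p of 0.0324, without the low-marker barcodes. Lars2 passed the adjusted p of 0.01 with no filter on low counts (-1.02) and when WT replicate 1 (-1.21), Dp(10)2Yey replicate 1 (-1.15) or Dp(10)2Yey replicate 2 (-0.98) was left out, and did not pass when WT replicate 2 was left out (-0.89). In the 699 other astrocytes, with each library left out in turn, it passed only without Dp(10)2Yey replicate 1. Gm42418 stood at 31745, 33213, 17946 and 14342 CPM, a log2 fold change of -1.01 ± 0.25, and of -1.07 without the low-marker barcodes. It passed with no filter on low counts (-0.94) and when Dp(10)2Yey replicate 1 (-1.15) or replicate 2 (-0.85) was left out. Gm42418 overlaps AY036118 on chromosome 17, at a locus of ribosomal RNA sequence, so its UMIs may not stand for a messenger RNA. AY036118 had 3312, 2138, 2423 and 1509 CPM, and its genotypes overlapped (-0.47, and from -0.82 to -0.10 when single libraries were left out). Which stretch of Lars2 the UMIs came from was not analysed here.

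For Lars2 and Gm42418 the difference was not tied to astrocytes by the test of the difference between classes. The log2 difference of Lars2 was -0.10 against oligodendrocytes, -0.21 against OPC and -0.16 against microglia, and that of Gm42418 was -0.08, -0.07 and -0.19, and 0 of the 6 passed the threshold.

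The other 8 genes of this group were Pcp4, Ncald, Cald1, C1qtnf4, Slc12a2, Tfcp2l1, Tmod3 and Serpinb9. Pcp4, which encodes a calmodulin regulator of neurons, stood at 258, 204, 31.2 and 108 CPM with a log2 fold change of -1.61. Single barcodes held 51 of its 54 UMIs in WT replicate 1 and 68 of 112 in WT replicate 2. Without the low-marker barcodes Pcp4 stood at 5.24, 51.8, 31.5 and 48.1 CPM, and its fold change turned to 0.18. Ncald, which encodes neurocalcin delta, stood at 95.5, 87.5, 31.2 and 33.2 CPM (-1.47) and at 36.7, 36.0, 27.0 and 12.7 CPM without those barcodes (-0.98), with no overlap. Cald1, the gene of caldesmon, went from -1.42 to -0.64, and C1qtnf4 from -1.08 to -0.31, and the genotypes of both then overlapped. Slc12a2 (the chloride cotransporter NKCC1), Tfcp2l1, Tmod3 and Serpinb9 had log2 fold changes of -2.22, -2.66, -2.16 and -2.06, and without the low-marker barcodes they no longer passed the filter on low counts. With no exclusion genes the 8 fold changes were -1.57 for Pcp4, -0.70 for Ncald, -0.73 for Cald1, -0.82 for C1qtnf4, -0.23 for Slc12a2, -2.32 for Tfcp2l1, -1.16 for Tmod3 and -1.28 for Serpinb9. With at least 6 UMIs of the rule genes they were -0.84 for Pcp4, -0.23 for Ncald, -1.56 for Cald1, -1.51 for C1qtnf4, -2.67 for Tfcp2l1 and -2.19 for Serpinb9, and Slc12a2 and Tmod3 were not tested. For Slc12a2 a single barcode of WT replicate 2 held 24 of the 53 UMIs of that library. With all astrocytes and no filter on low counts, Ncald (-1.41), Pcp4 (-1.55) and Slc12a2 (-2.15) passed the threshold. With all astrocytes and the filter, leaving out WT replicate 1 brought Pcp4 (-1.43), Slc12a2 (-2.69), Tmod3 (-2.48), Cald1 (-1.56) and Serpinb9 (-2.39) past the threshold. Leaving out Dp(10)2Yey replicate 1 did so for Cald1 (-1.82), and leaving out Dp(10)2Yey replicate 2 for Pcp4 (-2.85) and Slc12a2 (-2.64). The fold changes moved toward 0 for Cald1 without Dp(10)2Yey replicate 2 (-0.91) and for Pcp4 without Dp(10)2Yey replicate 1 (-1.06).

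**Figure D4:**
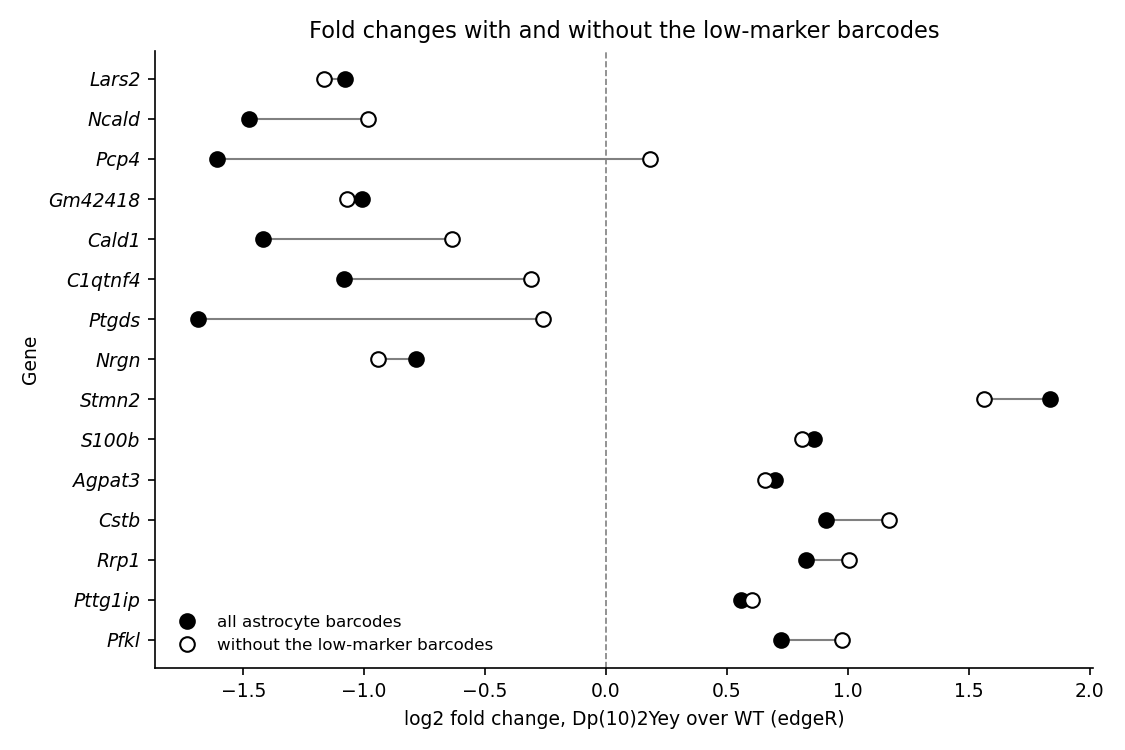
Log2 fold changes of Dp(10)2Yey over WT astrocytes from edgeR, with all 719 barcodes (filled) and with the 699 that remain without the low-marker barcodes (open). Lars2, Gm42418, S100b and Agpat3 keep their values (-1.08 and -1.17 for Lars2), while Pcp4 moves from -1.61 to 0.18 and Ptgds from -1.69 to -0.26.

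Genes of transmitter uptake showed no difference past the threshold. All 14 genes of this list were tested, 0 had an unadjusted p under 0.05, and their median log2 fold change was 0.05 (all genes -0.01), with both Dp(10)2Yey libraries above both WT libraries in 2 and below in 0. Slc1a3, the glutamate transporter GLAST, stood at 3780, 4034, 4239 and 4706 CPM, with the Dp(10)2Yey libraries above WT by a log2 fold change of 0.19 ± 0.22 (SE). Its genotypes overlapped without the low-marker barcodes, where the list had a median of -0.03 and 5 of 14 above 0. Glul, which encodes glutamine synthetase, stood at 2945, 2368, 3165 and 2420 CPM (0.07), with overlap.

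Genes of ion and water transport were close to the WT level as well. Of 16 genes 15 were tested, with a median of 0.02 (-0.03 over 14 without the low-marker barcodes), and Slc12a2 was the 1 gene with an unadjusted p under 0.05. Atp1b2, which encodes a beta subunit of the sodium pump, stood at 1651, 1407, 1581 and 1600 CPM (0.06), with overlap. Aqp4 stood at 902, 842, 777 and 799 CPM (-0.14 ± 0.21, SE), lower in both Dp(10)2Yey libraries by less than its error. Of 10 genes of gap junctions and adhesion 9 were tested, with a median of 0.14 (0.08 without the low-marker barcodes) and 0 at an unadjusted p under 0.05. Gjb6 had a log2 fold change of -0.13, and the integrin gene Itgb8 stood at 301, 230, 322 and 255 CPM (0.14).

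Lipid and cholesterol genes included Apoe, among the most abundant messenger RNAs of these cells. All 27 were tested, 18 had a fold change above 0, and the median was 0.06. The direction of the list turned without the low-marker barcodes, with 12 of 27 above 0, a median of -0.03, and 4 genes higher and 4 lower in both Dp(10)2Yey libraries, against 7 and 1 with all astrocytes. Apoe stood at 21669, 22467, 22790 and 26480 CPM, and Clu, which encodes the lipid carrier clusterin, at 6023, 6383, 6739 and 7535 CPM. Both were higher in the Dp(10)2Yey libraries than in WT, by 0.16 ± 0.25 and 0.20 ± 0.23 on the log2 scale, within the error, and both overlapped without the low-marker barcodes. Scd2 and Acsl3, which encode a desaturase and an acyl-CoA ligase, had log2 fold changes of -0.06 and 0.02. In this list 2 genes had an unadjusted p under 0.05: Cyp51, an enzyme gene of cholesterol synthesis, with 76.4, 131, 199 and 157 CPM (0.68), and Fabp7, a fatty acid binding protein gene of radial glia, with 673, 465, 744 and 856 CPM (0.51). Neither passed the adjusted threshold, and their genotypes did not overlap with or without the low-marker barcodes.

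Of 26 genes of glycolysis, glycogen and lactate, 24 were tested with a median of 0.00. Aldoc, the brain aldolase gene, stood at 3656, 3505, 4221 and 3545 CPM (0.12), with overlap, and Gapdh at 1251, 1205, 1656 and 1486 CPM (0.36 ± 0.21, SE), with no overlap. Ldhb and Aldoa had log2 fold changes of 0.04 and -0.07. The 1 gene with an unadjusted p under 0.05 was Pfkl of the duplicated segment.

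Reactive astrocyte genes were sparse. Of 37 in the list 7 passed the filter and 4 (Steap4, Tgm1, Slc10a6 and C3) were at 0 UMIs in every library. Gfap, the intermediate filament gene used to mark reactive astrocytes, stood at 320, 344, 330 and 560 CPM (0.43 ± 0.25, SE), with Dp(10)2Yey replicate 2 highest and Dp(10)2Yey replicate 1 at the WT level. A single barcode held 190 of the 489 Gfap UMIs in Dp(10)2Yey replicate 2. S100a10, C4b and Vim had log2 fold changes of -0.08, 0.28 and -0.40, all with overlap. Of the 7, 3 had an unadjusted p under 0.05, all lower: the MHC class I genes H2-D1 (-1.70) and H2-T23 (-1.45) and the heat shock gene Hspb1 (-1.92). The median of the 7 was -0.40, and it was 0.23 over the 5 tested without the low-marker barcodes, so that the direction of the list turned. All 3 were highest in WT replicate 2 (159, 85.7 and 87.5 CPM), and without the low-marker barcodes that library stood at 40.6, 2.25 and 2.25 CPM.

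Genes of neural stem cells and Notch signaling, which hippocampal astrocytes share with radial glia, had a median of 0.15 over the 20 of 25 that were tested, and the Dp(10)2Yey libraries both exceeded both WT libraries in 6 and below in 0. Hopx stood at 1146, 1568, 1502 and 1561 CPM (0.17), Sox9 at 668, 518, 765 and 606 CPM (0.22) and Id2 at 620, 538, 781 and 550 CPM (0.20), with overlap in each. An unadjusted p under 0.05 was reached by 3 genes, all higher: Fabp7, Emx2 and Thrsp. Emx2, a homeobox gene of the forebrain, stood at 71.6, 54.7, 118 and 102 CPM (0.85 ± 0.29, SE), and was found in 5.88%, 4.79%, 7.58% and 9.66% of the thinned astrocytes and in at most 0.176% of the thinned microglia. Thrsp, which encodes a regulator of lipid synthesis, stood at 506, 381, 682 and 597 CPM (0.54 ± 0.23). Both genes kept their order without the low-marker barcodes (0.72 and 0.47, list median 0.09), and neither passed the adjusted threshold.

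Secreted proteins and synapse-organizing genes had a median of 0.06 over the 26 of 30 that were tested. Cst3 stood at 24648, 24834, 33006 and 26176 CPM (0.26 ± 0.25, SE), with Dp(10)2Yey replicate 1 highest. Sparcl1, which encodes hevin, stood at 4262, 4373, 4435 and 4728 CPM (0.09), and Ptn, the gene of pleiotrophin, at 2797, 2634, 2880 and 3770 CPM (0.29). These 3 genes were higher in both Dp(10)2Yey libraries and overlapped without the low-marker barcodes, where the list median was 0.0086. The peptidase gene Cpe had a log2 fold change of 0.24 with overlap, and the glypican gene Gpc6, at 47.7, 89.3, 31.2 and 51.5 CPM, was the 1 gene with an unadjusted p under 0.05 (-0.79, with overlap).

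Genes that dissociation of tissue can induce leaned upward. Of the 41 immediate early and heat shock genes listed, 40 were in the files and 23 were tested. Their median was 0.29, with 20 above 0, and the Dp(10)2Yey libraries both exceeded both WT libraries in 9 and below in 1. Hspa8, Hsp90aa1 and Hspe1, which encode chaperones, stood at 797, 638, 829 and 819 CPM, at 377, 344, 493 and 423 CPM and at 320, 321, 426 and 359 CPM, all higher in both Dp(10)2Yey libraries. Leaving out the low-marker barcodes, the median was 0.20, and Hsp90aa1 and Hspe1 overlapped. Fos stood at 14.3, 104, 191 and 97.3 CPM (0.97) with overlap, and at 15.7, 115, 160 and 43.1 CPM without those barcodes (0.20). Jund had 191, 250, 235 and 289 CPM (0.23), also with overlap. Btg1, with 186, 191, 264 and 275 CPM (0.51 ± 0.22, SE), did not overlap in either set, and Cebpb, at 33.4, 38.3, 10.4 and 16.02 CPM, was lower (-1.39). Without the low-marker barcodes 19 genes of the list were tested and 0 were lower in both Dp(10)2Yey libraries. Cebpb then either overlapped or was no longer tested. No gene of the list passed the adjusted threshold, and the part of tissue handling in these values was not tested.

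A list of 61 genes of TNF and NF-kappaB signaling gave a similar picture with 23 genes tested, a median of 0.21 and 16 above 0. The 3 genes with an unadjusted p under 0.05 were Btg1, Fos and Cebpb, which the dissociation list also holds. Vegfa, which encodes the vascular growth factor, stood at 344, 213, 258 and 244 CPM (-0.10), and Klf9 at 196, 166, 197 and 151 CPM (-0.05), both with overlap.

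Complement was examined because the study reported it for hippocampal cells of these mutants. Of 23 complement genes 6 passed the filter and 5 (C1ra, C3, Cfb, Cfi and C5ar1) were at 0 UMIs in all astrocytes. The 6 had a median of 0.54, all above 0, with both Dp(10)2Yey libraries above both WT libraries in 1, which was Clu. In the 699 other astrocytes 4 were tested, with a median of 0.30. C4b stood at 95.5, 96.6, 68.6 and 157 CPM (0.28) and Cr1l at 43.0, 47.4, 43.6 and 65.2 CPM (0.29), with overlap. The C1q genes, which microglia express, were near the lower limit: C1qa had 4, 2, 8 and 28 UMIs, and 4.41%, 0%, 0% and 3.36% of the thinned astrocytes held one, against at least 98.8% of the thinned microglia. C1qa and C1qc had unadjusted p values under 0.05 (log2 fold changes 1.64 and 1.29), C1qb did not (0.79), and the genotypes of all 3 overlapped. A single barcode of Dp(10)2Yey replicate 2 held 12 of its 28 C1qa UMIs.

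Genes that the study discusses beside its pathway results on these samples were taken as a list, with the complement receptor CR3 as Itgam and Itgb2. They are no independent evidence of a direction. The list held 10 genes, of which 6 were tested in astrocytes: S100b, Prmt2, Mtor, C1qa, C1qb and C1qc. Their median was 0.88. Of the 6, 2 (S100b and Prmt2) lay higher in both Dp(10)2Yey libraries and 1 (Mtor) lay lower in both. Mtor, which encodes the kinase of mTOR signaling, stood at 43.0, 25.5, 24.9 and 22.9 CPM (-0.39 ± 0.45, SE), with WT replicate 2 close to both Dp(10)2Yey libraries. C3 was at 0 UMIs, and Adarb1, Itgam and Itgb2 were not tested. Itgb2, a segment gene of leukocyte integrins, had 1 UMI in all astrocytes and was found in 13.6%, 14.8%, 20.9% and 19.7% of the thinned microglia.

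Microglial RNA in the astrocytes was examined with a list, since P2ry12 (3, 3, 4 and 7 UMIs) and Cx3cr1 (0, 0, 3 and 5) were held low by the rule itself. The microglial list of 20 genes had 7 tested members with a median of 0.79, all above 0. Its summed level without Cst3, which astrocytes express, was 177, 124, 181 and 288 CPM, with Dp(10)2Yey replicate 2 highest and WT replicate 2 lowest. Tyrobp, which encodes a signaling adaptor of microglia, stood at 23.9, 9.11, 14.5 and 32.0 CPM, with overlap. No list gene passed the threshold, and what the remaining microglial RNA contributes to the C1q values was not tested.

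Oligodendrocyte RNA was examined in the same way. The 20 oligodendrocyte genes summed to 1188, 2302, 2340 and 1589 CPM, of which 8 were tested with a median of 0.22 (0.034 without the low-marker barcodes). Mog (0, 0, 3 and 1 UMIs) and Opalin (0, 0, 2 and 1) were held low by the rule. Car2, which astrocytes also hold at this depth in 41.2%, 22.6%, 35.6% and 31.5% of thinned cells, was the most abundant at 530, 427, 520 and 585 CPM. Mbp stood at 186, 457, 867 and 299 CPM (0.77 ± 0.39, SE), highest in Dp(10)2Yey replicate 1 and lowest in WT replicate 1. It was found in 13.2%, 14.4%, 31.8% and 15.97% of the thinned astrocytes, against 7.79%, 7.56%, 12.1% and 8.44% of the thinned microglia, in which Dp(10)2Yey replicate 1 was also the highest library. Cryab, the gene of a small heat shock protein, had 71.6, 186, 172 and 150 CPM (0.19), with overlap.

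Ptgds, which encodes prostaglandin D synthase, depended on both the gate and a library. It stood at 57.3 and 439 CPM in WT replicates 1 and 2 and at 43.6 and 118 CPM in the Dp(10)2Yey replicates, with a log2 fold change of -1.69 ± 0.51 (SE) and overlapping genotypes. The WT level rested on replicate 2, in which 1 barcode held 82 of the 241 UMIs. In the 699 other astrocytes the library levels were 57.6, 131, 45.0 and 118 CPM, and the fold change was -0.26. It was 0.59 without WT replicate 2 and 1.74 when no exclusion genes were used, so that its direction turned. Ptgds passed the threshold with no filter on low counts (-1.63) and when WT replicate 1 (-2.34) or Dp(10)2Yey replicate 2 (-2.60) was left out.

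Neuronal RNA was present at 1398, 1247, 1652 and 819 CPM over 15 genes, of which 11 were tested with a median of 0.29. In the astrocytes that were not low-marker barcodes the sum was 262, 674, 583 and 464 CPM. Nrgn, the gene of neurogranin, was the most abundant at 811, 556, 613 and 185 CPM (-0.79, with overlap), and a single barcode held 145 of its 170 UMIs in WT replicate 1. Camk2a, Meg3 and Snap25 had log2 fold changes of 0.29, 0.56 and 0.31 with overlap. Stmn2, which encodes a microtubule regulator of neurons, stood at 9.55, 16.4, 76.9 and 33.2 CPM (1.84 ± 0.53, SE), with no overlap in either set and an adjusted p above 0.01.

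The fibroblast list was the most uneven. Its 10 genes summed to 43.0 and 3447 CPM in WT replicates 1 and 2 and to 31.2 and 332 CPM in Dp(10)2Yey replicates 1 and 2. Without the low-marker barcodes the sums were 41.9, 40.6, 33.7 and 40.5 CPM, with Lum, Igf2 and Slc6a13 at 0 in either set. Of its 5 tested genes 4 had an unadjusted p under 0.05 and lower values in Dp(10)2Yey astrocytes: Mgp (-3.59), Igfbp6 (-2.67), Islr (-2.17) and the collagen gene Col1a2 (-2.39). All of these were highest in WT replicate 2 and overlapped between the genotypes. Since the list was drawn up once the first results were known, its values are a description.

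Other cell types were close to the lower limit. OPC genes summed to 363, 304, 295 and 243 CPM, with 4 of 14 tested and a median of 0.01 (-0.13 over 3 without the low-marker barcodes), and Olig1 led with 124, 126, 145 and 122 CPM. Endothelial genes summed to 582, 820, 522 and 644 CPM (4 of 14 tested, median -0.13), mostly as Bsg, which astrocytes hold too, while Ly6a and Ptprb were at 0. Mural genes had 1 of 10 tested, Pdgfrb, at 90.7, 91.1, 91.4 and 87.0 CPM (-0.03). Genes of immature neurons had 3 of 10 tested (median -0.10), with Stmn1 highest at 71.6, 140, 139 and 190 CPM. Ependymal genes had 2 of 12 tested (median -0.02), led by Rarres2 at 71.6, 56.5, 62.3 and 72.1 CPM, with Tmem212, 1700012B09Rik and Sntn at 0. Choroid plexus genes had 0 of 10 tested and summed to 4.77, 21.9, 20.8 and 65.2 CPM. Of 10 genes of dividing cells 1 was tested, Hmgb2, which stood at 62.0, 65.6, 64.4 and 170 CPM (0.93) and at 62.9, 49.6, 67.5 and 45.6 CPM without the low-marker barcodes (0.01).

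Globin RNA set Dp(10)2Yey replicate 2 apart. The 7 erythroid genes summed to 158, 197, 158 and 402 CPM, with 3 tested and a median of 0.28. Hbb-bs stood at 19.1, 21.9, 22.9 and 94.97 CPM, with a log2 fold change of 1.60, and was found in 2.94%, 3.42%, 2.27% and 10.5% of the thinned astrocytes. In the thinned microglia, which do not make globin, the shares were 2.27%, 1.05%, 3.45% and 9.05%, with the same library highest, so that the astrocyte shares cannot be told apart from free RNA.

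**Figure D5:**
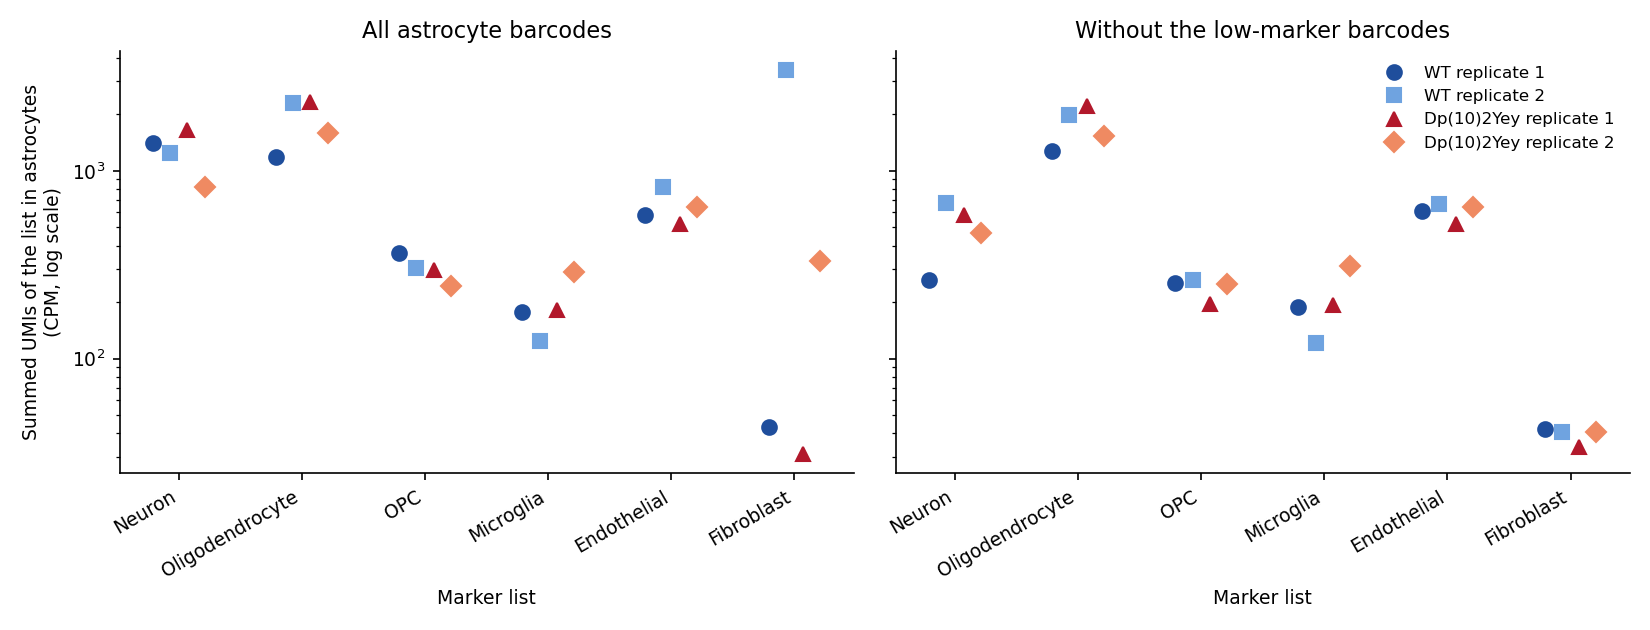
Summed UMIs in astrocytes, in CPM on a log scale, of marker lists of 6 other cell types, with all 719 astrocytes (left) and with the 699 that remain without the low-marker barcodes (right), 1 symbol per library. The fibroblast list stands at 3447 CPM in WT replicate 2 on the left and between 33.7 and 41.9 CPM in all libraries on the right, and the microglial list is little changed.

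To ask whether a genotype difference was particular to astrocytes, the class by genotype term was tested over all genes against 3 other classes from the same libraries. Against oligodendrocytes 10 of 9183 genes (0.109%) passed the adjusted p of 0.01, against OPC 18 of 8951 (0.201%) and against microglia 35 of 10454 (0.335%). In 9 of the 10, 16 of the 18 and 33 of the 35 the fold change was lower in astrocytes than in the other class. WT replicate 2 was the library with the highest astrocyte level for 9, 14 and 31 of these genes, and the genotypes overlapped within astrocytes for 9, 15 and 30. Ifi27l2a, an interferon-induced gene called against oligodendrocytes and microglia, had 0 and 388 CPM in the WT libraries and 2.08 and 10.3 CPM in the Dp(10)2Yey libraries, and a single barcode held 185 of its 213 UMIs in WT replicate 2.

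The number of calls depended on the setting. In the 699 astrocytes without low-marker barcodes 0, 4 and 2 genes passed against oligodendrocytes, OPC and microglia, and all 6 were among the genes called with all astrocytes. DESeq2 with the same design called 1, 0 and 0. Without WT replicate 2 the counts were 0, 5 and 2, without Dp(10)2Yey replicate 1 they were 2, 11 and 17, without WT replicate 1 they were 19, 20 and 51, and without Dp(10)2Yey replicate 2 they were 12, 17 and 26. The 4 genes against OPC were Ptgds, Hba-a1, Nrgn and Hbb-bs. The log2 difference of Ptgds was -3.85 with all astrocytes and -2.50 without the low-marker barcodes, and that of Nrgn -3.76 and -3.94. These values also hold the genotype change within OPC. Within astrocytes the fold change of Ptgds was -1.69 with all astrocytes and -0.26 without those barcodes. That of Nrgn with all astrocytes, given above, was also smaller than its difference. The log2 difference was 4.47 for Hba-a1 and 2.41 for Hbb-bs, with astrocyte levels highest in Dp(10)2Yey replicate 2 for both.

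The 2 genes against microglia were S100a6 and Gm26870. S100a6, which encodes a calcium-binding protein of the same family as S100b, stood at 229, 228, 212 and 277 CPM in astrocytes, with a log2 fold change of 0.11 and overlapping genotypes. In microglia it stood at 0.839, 2.52, 34.0 and 25.3 CPM, higher in both Dp(10)2Yey libraries. The log2 difference of S100a6 was -3.73, so that it came with a fold change near 0 in astrocytes and a higher level in Dp(10)2Yey microglia. Gm26870 had a difference of 2.79, with a fold change of 1.18 in astrocytes and its highest level in Dp(10)2Yey replicate 2. Without the low-marker barcodes the genotypes overlapped within astrocytes for all 6 genes called against OPC or microglia. With all astrocytes they did not overlap for Hba-a1 and Hbb-bs.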

How the data were processed

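Single-cell RNA sequencing of 4 hippocampal libraries was analysed. The authors made the deposited values, raw UMI counts per gene and barcode, with Cell Ranger 3.0.2 against a mouse reference and called the cells. The members and the gene lists were chosen with earlier results of these data known. UMIs were summed over the astrocytes of each library, so that n is 2 mice per genotype, and tested with edgeR 4.0.16 (quasi-likelihood, TMM scaling, filterByExpr) in R 4.3.3, with adjusted p by Benjamini-Hochberg and DESeq2 1.42.0 as the alternative. CPM are UMIs over the TMM-scaled UMIs of the tested genes. The SE of a log2 fold change was its absolute value over the square root of the quasi-likelihood F statistic. It is not a spread measured between mice. Differences between classes were tested as class by genotype terms with library as a block. Thinning drew 1000 UMIs per barcode without replacement and left out 135 shallower astrocytes. Doublets were called with Scrublet in scanpy 1.11.5 (Python 3.11.15). The sums held 215635 to 891888 UMIs. Positions are those of GRCm38. Alternatives varied the rule, the exclusion genes, mitochondrial RNA, doublets, scaling, the filter, depth and each library, and those on low-marker barcodes, the deepest barcode and barcodes thinned before summing were chosen after seeing the data.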

Additional observations from a re-analysis of the deposited data

Results flagged for a closer look

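The genotype difference of 10 genes differed between astrocytes and oligodendrocytes, that of 18 genes between astrocytes and oligodendrocyte precursor cells, and that of 35 genes between astrocytes and microglia. Each is a tested difference between cell classes, by a class by genotype term at an adjusted p of 0.01, and that is what marked them for a closer look. Within astrocytes the genotypes overlapped for 9, 15 and 30 of these genes. The counts were 0, 4 and 2 without the low-marker barcodes and 1, 0 and 0 with DESeq2.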

How the results depend on the processing

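With 2 mice per genotype and 215635 UMIs in the smallest sum, the median standard error of a log2 fold change was 0.37 over the tested genes. Replicate numbers are not known to mark a shared day: deviations of same-numbered libraries had a correlation of 0.0956. A replicate block gave 25 genes past the adjusted p of 0.01 instead of 0. Lars2, Pcp4, Slc12a2, Ncald, Cald1 and Ptgds were among them. Without the low-marker barcodes the block gave 1 gene, which was Lars2. Leaving out a library leaves a lone sample, which edgeR assumes to vary like the others. Of 486 fold changes of 32 genes under the alternatives, 25 reversed and 28 passed the threshold; of 438 list medians over 26 lists, 336 stayed within 1 SD. Where a value moved, the cause was not tested.

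The count of called genes was 94 with no filter on low counts, and ranged from 0 to 106 without each library. Without the low-marker barcodes it was 3, 4 and 18 with WT replicate 1, WT replicate 2 and Dp(10)2Yey replicate 1 left out. The segment median was 0.39 with no filter on low counts, 0.93 with barcodes thinned before summing (6 genes tested, against 20), 0.63 with the replicate block, and 0.53 to 0.81 without each library. Calls against oligodendrocytes, OPC and microglia were 1, 0 and 0 with DESeq2, 0, 4 and 2 without the low-marker barcodes, and 0 to 19, 5 to 20 and 2 to 51 without each library.

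Reversed log2 fold changes were, with exclusion genes at 0 UMIs, Lss -0.16, Trappc10 -0.023 and Pdxk 0.22; with no exclusion genes, Pofut2 0.42, Pdxk 0.11 and Ptgds 1.74; with mitochondrial UMIs at most 20%, Pofut2 0.028; with sums thinned to the smallest library, Trappc10 -0.20. Without the low-marker barcodes they were Lss -0.072, Trappc10 -0.074, Pdxk 0.65 and Pcp4 0.18, and without the deepest barcode of WT replicate 2, Lss -0.013 and Pdxk 0.31. Without each library in turn the ranges were Pcnt -0.73 to 0.64, Lss -0.058 to 0.17, Slc19a1 -0.68 to 0.64, Pofut2 -0.24 to 0.067, Trappc10 -0.10 to 0.39, Pdxk -0.69 to 1.11 and Ptgds -2.60 to 0.59.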
